A study of Mus musculus with 15 samples.

Results

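The mouse mitochondrial genome is a small circular chromosome that holds 37 genes: 13 for proteins, 2 for ribosomal RNAs (rRNA) and 22 for transfer RNAs (tRNA). They were chosen as every gene of the deposited count table whose mouse symbol starts with mt-, which gave 37 of its 43352 genes, and all 37 passed the filter on low counts. Counts came from bulk RNA of the fat that wraps the aorta of mice aged 11 weeks, called perivascular adipose tissue, either thoracic (tPVAT) or abdominal (aPVAT). Controls had the genotype Prdm16flox, and the knockouts (cKO) Prdm16flox, AdipoQCre+, in which Cre is driven by the promoter of the adiponectin gene, so that floxed Prdm16 is deleted in adipocytes but not in the other cells of the tissue. Both genotypes therefore carry the floxed allele, and no group without it or with Cre alone was used here. There were 4 tPVAT control, 4 tPVAT cKO, 4 aPVAT control and 3 aPVAT cKO libraries, the last numbered 1, 3 and 4. The labels do not say whether libraries of a group come from separate animals, so the p-values below measure the spread between these samples only.

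Mitochondria make ATP by passing electrons along protein complexes in their inner membrane, and brown fat cells, which the thoracic depot is rich in, also use this chain to release heat. Their own genome encodes core subunits of complex I (mt-Nd1 to mt-Nd6 and mt-Nd4l), complex III (mt-Cytb), complex IV (mt-Co1, mt-Co2 and mt-Co3) and the ATP synthase, complex V (mt-Atp6 and mt-Atp8), while all the other subunits, and the whole of complex II, are encoded in the nucleus. Each strand is transcribed as a long precursor from which enzymes cut out the tRNAs, and the cuts release the mRNAs and rRNAs that lie between them. PRDM16, the targeted transcription factor, holds fat cells in a brown or beige state.

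The genes of 5 tRNAs encoded on the minus strand are printed because they had the smallest adjusted p-values of the tRNA genes between genotypes in tPVAT (below). The first 4 lie side by side between mt-Nd2 and mt-Co1, and the fifth at the end of the annotated genes. The 13 protein genes span 11403 bases, the tRNA genes 1501 and the rRNA genes 2537; 28 genes are read from the plus strand and 9 from the minus strand. Sequences are the GENCODE M21 transcripts on GRCm38 (mm10), 5′ to 3′, and the capitals mark the anticodon as it stands in the DNA letters.
mt-Ta, tRNA for alanine, chrM:5018-5086, minus strand: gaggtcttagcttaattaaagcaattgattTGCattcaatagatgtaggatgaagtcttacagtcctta
mt-Tn, tRNA for asparagine, chrM:5089-5159, minus strand: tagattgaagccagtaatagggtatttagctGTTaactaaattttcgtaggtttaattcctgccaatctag
mt-Tc, tRNA for cysteine, chrM:5192-5257, minus strand: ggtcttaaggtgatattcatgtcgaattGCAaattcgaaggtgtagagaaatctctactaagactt
mt-Ty, tRNA for tyrosine, chrM:5260-5326, minus strand: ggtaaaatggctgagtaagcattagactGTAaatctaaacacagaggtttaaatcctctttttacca
mt-Tp, tRNA for proline, chrM:15356-15422, minus strand: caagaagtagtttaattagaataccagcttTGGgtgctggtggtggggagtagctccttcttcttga

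Reads in this genome can be shared between genes, and 2 further stretches show how. The end of mt-Atp8 and the start of mt-Atp6 use the same 43 bases in different reading frames, marked in capitals with 10 bases on either side, so a read from there belongs to both genes. The start of mt-Nd3 is nearly the same as the start of Gm28438, a pseudogene on chromosome 1, and differs from it by T3C, counted from base 1 of mt-Nd3 and marked by the capital. That is the only difference over the 345 bases compared.
mt-Atp8 and mt-Atp6, chrM:7917-7979, plus strand: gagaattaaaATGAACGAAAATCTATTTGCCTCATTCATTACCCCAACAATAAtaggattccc
mt-Nd3, chrM:9459-9498, plus strand: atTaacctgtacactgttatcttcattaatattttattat
Gm28438, chr1:24613080-24613119, minus strand: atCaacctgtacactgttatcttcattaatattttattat

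Total counts per library ran from 37761133 to 68735385, with a median of 63597838. The targeted gene matched the labels: Prdm16 stood at 46.4, 41.1, 46.3 and 55.6 CPM (counts for each 1e+06 counts of a library, scaled by the trimmed mean of M values, TMM, as are all CPM below) in the tPVAT controls and 22.4, 21.2, 22.2 and 23.8 in the cKO libraries, and at 21.4 to 26.8 against 14.7 to 18.3 in aPVAT. The adipocyte markers Adipoq, Plin1, Cidec, Lipe and Lep were present in every library, and their summed CPM was 3524 to 3674 in tPVAT controls, 4236 to 4617 in tPVAT cKO, 4554 to 5920 in aPVAT controls and 4924 to 6418 in aPVAT cKO. Libraries aPVAT cKO 4 and aPVAT control 2 stood apart in nuclear structural RNA, which took 2.24% and 0.929% of their counts against 0.0704% to 0.213% in the other 13.

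Mitochondrial genes held a large part of every library. Their share of all counts was 34.4%, 33.4%, 36.4% and 34.1% in tPVAT controls 1 to 4, and 30.1%, 26.5%, 31.6% and 31.4% in tPVAT cKO 1 to 4. It was 13.03%, 15.99%, 14.44% and 14.03% in aPVAT controls 1 to 4, and 13.9%, 13.4% and 13.3% in aPVAT cKO 1, 3 and 4. The 2 genotypes did not overlap in tPVAT and overlapped in aPVAT, and the 2 depots were far apart.

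Nearly all of this share came from the 13 protein genes, with 33.8% ± 1.16 (SD, n = 4) in tPVAT controls, 29.1% ± 2.16 (n = 4) in tPVAT cKO, 14.1% ± 1.15 (n = 4) in aPVAT controls and 13.2% ± 0.606 (n = 3) in aPVAT cKO. The 2 rRNA genes held 0.681% ± 0.122, 0.804% ± 0.234, 0.188% ± 0.0799 and 0.334% ± 0.349 in the same order, and the genotypes overlapped in both depots. The kit, per the labels, prepares mRNA, so the counts of rRNA and tRNA genes are what such a library retains and not the amounts of the mature RNAs. The 22 tRNA genes held 0.0684% ± 0.00146, 0.0542% ± 0.00635, 0.0327% ± 0.00146 and 0.0264% ± 0.000938. This was the 1 class of the 3 whose share was lower in every cKO library than in every control of the same depot in both depots, at 0.0453% to 0.0599% against 0.0669% to 0.0698% in tPVAT, and at 0.0255% to 0.0274% against 0.0309% to 0.0345% in aPVAT. A single gene, mt-Tp, held 60.9% to 65.2% of the tRNA counts in tPVAT and 66.7% to 74.0% in aPVAT. Without it the share of the other 21 was still apart in tPVAT (0.0158% to 0.0235% in cKO against 0.0242% to 0.0270%) but overlapped in aPVAT (0.00664% to 0.0091% against 0.00834% to 0.0108%). A share falls when other genes take more of a library, and in bulk tissue fewer cells of a type and less RNA per cell cannot be told apart.

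**Figure D1:**
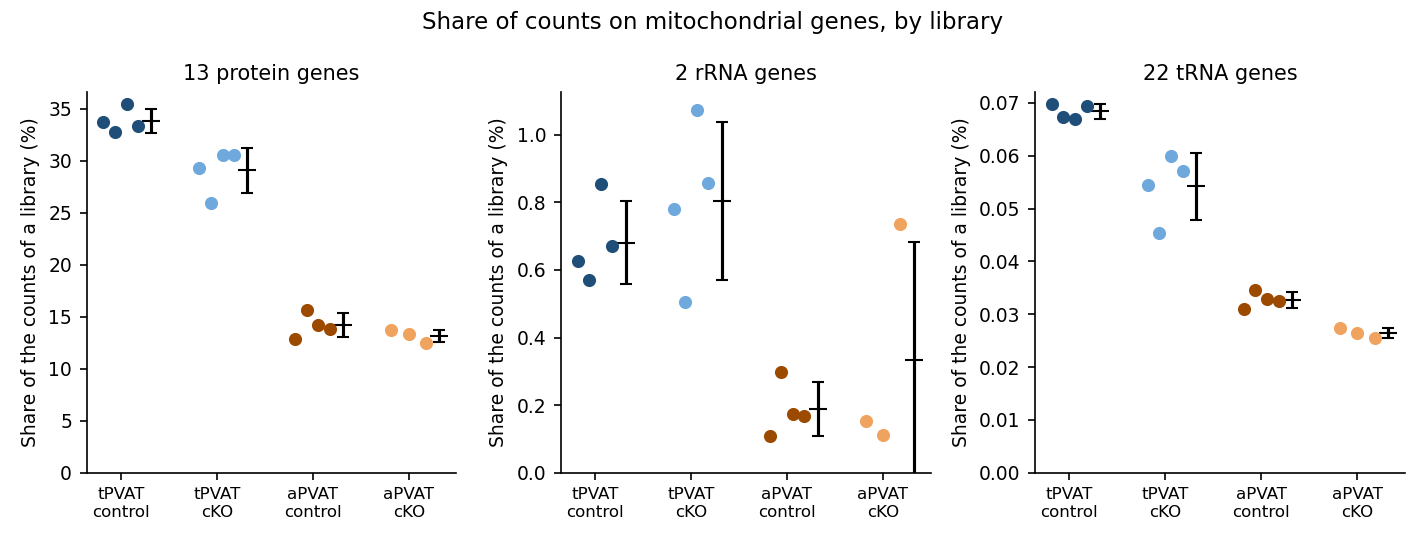
Percent of all counts (y axis) held by protein, rRNA and tRNA genes of the mitochondrial genome in each of the 15 libraries, by group (x axis), with group mean ± SD; the lower end of the aPVAT cKO bar for rRNA lies below 0 and is cut off. Protein gene shares run from 25.9% to 35.4% in tPVAT and from 12.5% to 15.7% in aPVAT, and 1 aPVAT cKO library stands at 0.737% in the rRNA panel.

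In tPVAT 4 of the 13 protein genes fell with the knockout: 2 of complex IV, 1 of complex III and 1 of complex I. Fold changes are log2 of cKO over control, and a gene rose or fell where edgeR's quasi-likelihood test gave an adjusted p under 0.05 over all 19645 genes tested. None rose, and the 4 that fell stand against 6.61% of all genes tested that fell. All 13 had negative values, with a median of -0.30 beside -0.01 for all genes tested, and in 9 of 13 every cKO library lay below every control, against 12.2% of all genes tested. The 9 that missed the threshold had adjusted p-values from 0.0529 to 0.385.

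Complex IV, which hands electrons to oxygen, had 2 of its 3 mitochondrial subunits past the threshold. mt-Co3 stood at 32769, 31245, 35343 and 30312 CPM in the controls and 25002, 21610, 25719 and 25042 in the cKO libraries, a fall by 0.41 (SE 0.0864, edgeR adjusted p = 0.00493). No cKO library reached the lowest control. mt-Co2, which holds the first copper site that receives electrons from cytochrome c, stood at 30439, 29460, 33515 and 29014 CPM in the controls and 24071, 18942, 24694 and 25350 in the cKO libraries, and fell by 0.40 (SE 0.102, edgeR adjusted p = 0.0185). Library cKO 2 was the lowest for both. mt-Co1, the catalytic subunit, stood at 97270, 96872, 101396 and 91685 CPM against 82239, 69636, 83169 and 85644, without overlap, and its log2 value of -0.27 (SE 0.0866) had an adjusted p of 0.0529.

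mt-Cytb is the single complex III subunit of this genome and holds hemes that pass electrons inside that complex. It stood at 55253, 51707, 61847 and 55372 CPM in the tPVAT controls and 42766, 34368, 47255 and 48035 in the cKO libraries, and fell by 0.38 (SE 0.115, edgeR adjusted p = 0.0419). Of the 7 complex I subunits only mt-Nd3 passed, at 3456, 3450, 4058 and 3301 CPM in the controls and 2771, 2405, 3254 and 2754 in the cKO libraries, a fall by 0.35 (SE 0.108, edgeR adjusted p = 0.0455). In both genes the highest cKO library lay just under the lowest control. The other 6 complex I genes had log2 values of -0.32 (mt-Nd4l), -0.30 (mt-Nd4), -0.26 (mt-Nd5), -0.23 (mt-Nd6), -0.19 (mt-Nd1) and -0.16 (mt-Nd2). The groups of mt-Nd4l and mt-Nd4 did not overlap, while those of the other 4 did. Neither complex V gene passed: mt-Atp8 had a log2 value of -0.32 (adjusted p = 0.0697) and mt-Atp6 of -0.26 (adjusted p = 0.149), both without overlap between the groups.

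How many of the 13 passed depended on single libraries: it was 1 when tPVAT control 3 or cKO 2 of that depot was left out, 2 when any other tPVAT control, cKO 1 of that depot, aPVAT control 4 or aPVAT cKO 3 was, and 7 when aPVAT control 1 was. DESeq2 called 8 of 13. mt-Co3 was below the threshold under all 25 alternatives (adjusted p from 6.79e-06 to 0.0487). mt-Co2 missed it when tPVAT control 3 (adjusted p = 0.0608) or cKO 2 of that depot (0.0514) was left out. mt-Cytb missed it when any tPVAT control, tPVAT cKO 1 or 2, aPVAT control 3 or 4, or aPVAT cKO 1 or 3 was left out (0.0505 to 0.117). The same was so of mt-Nd3 for any tPVAT control, tPVAT cKO 1, 2 or 4, aPVAT control 4, and aPVAT cKO 3 or 4 (0.0506 to 0.136).

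Between genotypes, all calls among the RNA genes were of tRNA genes. In tPVAT 7 of 22 tRNA genes fell with the knockout and none rose, against 6.61% of all genes tested that fell. The median of the 22 was -0.52, and 11 were lower in every cKO library than in every control, against 12.2% of all genes tested. Of the 8 tRNA genes on the minus strand 5 fell (median -0.63), and of the 14 on the plus strand 2 fell (median -0.51); whether the strands differ was not tested. Whether the counting used strand is not given in the sources used here, so counts of a minus-strand gene cannot be told apart from those of the precursor of the opposite strand.

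In the run of 4 minus-strand genes printed above, every one fell. mt-Ty stood at 28.9, 23.1, 29.4 and 25.4 CPM in the tPVAT controls and 13.9, 12.4, 17.1 and 18.6 in the cKO libraries, a fall by 0.78 (SE 0.12, edgeR adjusted p = 0.000425). mt-Ta stood at 4.11, 2.81, 3.33 and 2.77 CPM against 1.5, 1.49, 2.01 and 2.07, a fall by 0.89 (SE 0.161, edgeR adjusted p = 0.00183). mt-Tn stood at 21.2, 16.1, 16.9 and 16.7 CPM against 9.04, 8.48, 10.8 and 12.8, a fall by 0.78 (SE 0.155, edgeR adjusted p = 0.00323). The groups were apart in each, and control 1 was high for mt-Ta and mt-Tn. mt-Tc stood at 6.11, 4.29, 5.70 and 4.04 CPM against 2.43, 2.67, 3.46 and 3.18, a fall by 0.78 (SE 0.169, edgeR adjusted p = 0.00627), also without overlap.

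mt-Tp, whose gene closes the annotated genome beside mt-Tt, had the highest counts of any tRNA gene. It stood at 557, 542, 545 and 541 CPM in the tPVAT controls and 423, 336, 461 and 444 in the cKO libraries, and fell by 0.39 (SE 0.0843, edgeR adjusted p = 0.00585). The 4 controls lay close together and every cKO library was well below them. On the plus strand, mt-Tg, the glycine tRNA between mt-Co3 and mt-Nd3, stood at 3.37 to 4.87 CPM in controls and 2.24 to 3.07 in cKO and fell by 0.55 (SE 0.156, edgeR adjusted p = 0.0314). mt-Th, the histidine tRNA after mt-Nd4, fell by 0.70 (SE 0.218, edgeR adjusted p = 0.0486), with overlapping groups, at 3.26 to 5.56 CPM against 1.40 to 3.28. The calls for mt-Ty, mt-Ta and mt-Tp held under all 25 alternatives. Those for mt-Tg and mt-Th did not. Leaving out a tPVAT control (number 1 or 3) or a tPVAT cKO library (number 1, 2 or 3) ended the call for mt-Tg, with adjusted p-values from 0.0532 to 0.117. Leaving out a tPVAT control (1, 2 or 3), a tPVAT cKO library (1 or 2), an aPVAT control (2, 3 or 4) or any aPVAT cKO library ended that for mt-Th (0.0523 to 0.159).

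Other tRNA genes with many counts did not pass. mt-Te, for glutamate, stood at 71.2 to 98.8 CPM in the tPVAT controls and 43.1 to 72.7 in the cKO libraries (log2 -0.49, adjusted p = 0.0884), mt-Ts1, a serine tRNA, at 87.1 to 101 against 50.7 to 80.1 (log2 -0.38, adjusted p = 0.084), and mt-Tl1, a leucine tRNA, at 44.5 to 62.1 against 33.3 to 55.7 (log2 -0.25, adjusted p = 0.322). The groups of mt-Ts1 were apart and the others overlapped. The rRNA genes had log2 values of 0.04 for mt-Rnr1 (SE 0.468, adjusted p = 0.971) and 0.29 for mt-Rnr2 (SE 0.481, adjusted p = 0.756), with standard errors several times those of the protein genes.

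**Figure D2:**
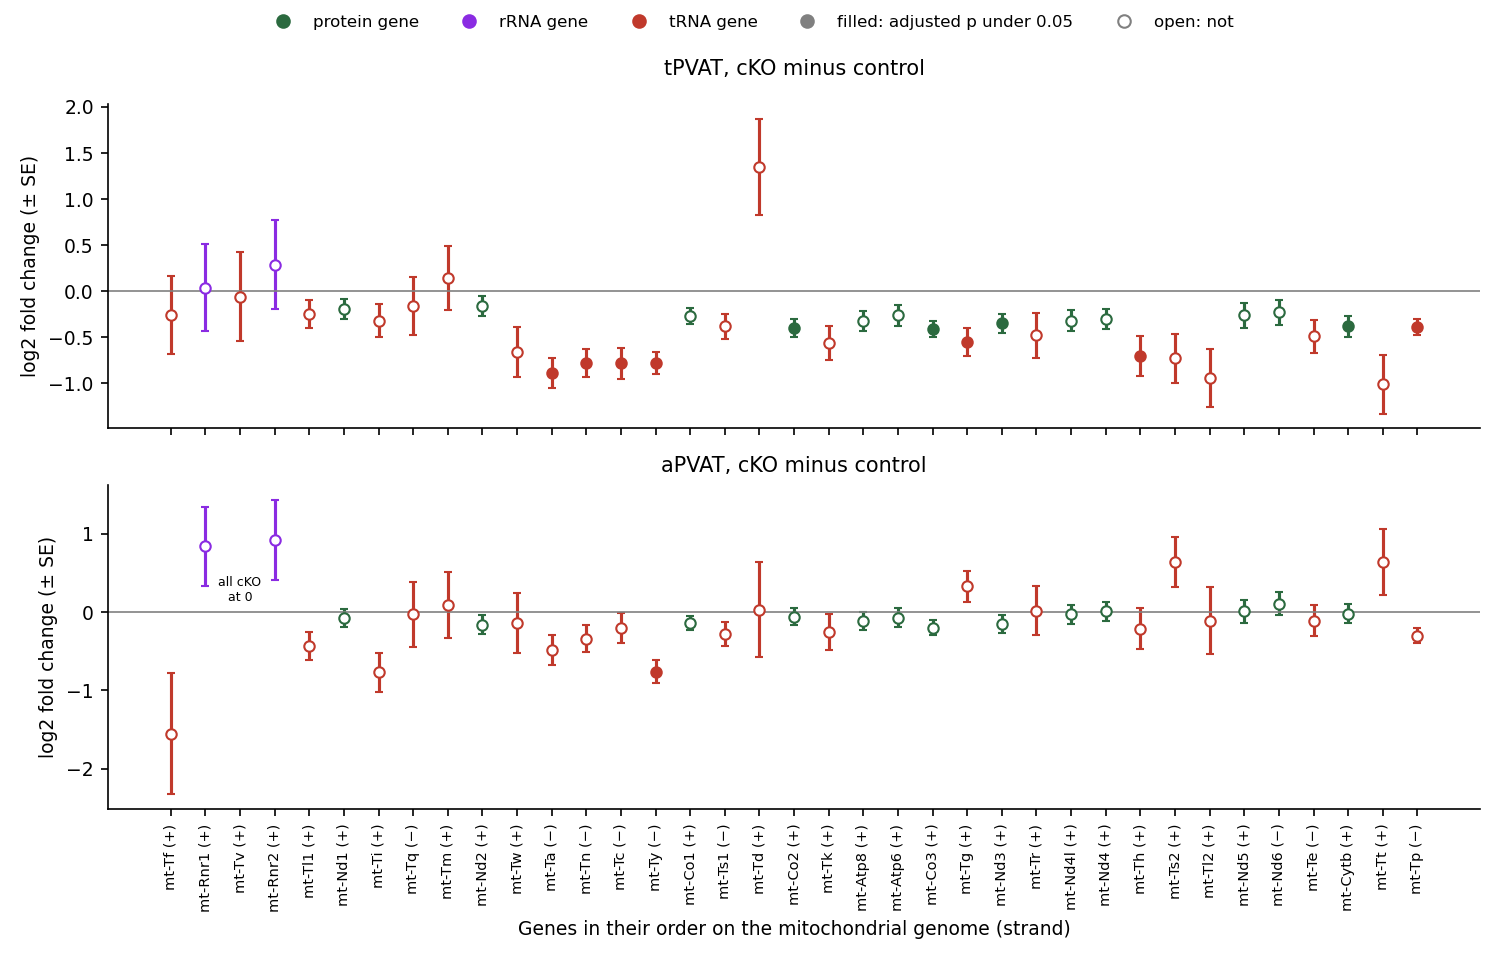
Log2 fold change of cKO over control with its standard error (y axis) for each gene of the mitochondrial genome in genome order (x axis), in tPVAT and aPVAT, with the class and strand of each gene; filled points have an edgeR adjusted p under 0.05, and mt-Tv is not drawn for aPVAT. In tPVAT 4 protein and 7 tRNA genes are filled, all below 0, and in aPVAT only mt-Ty is.

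**Figure D3:**
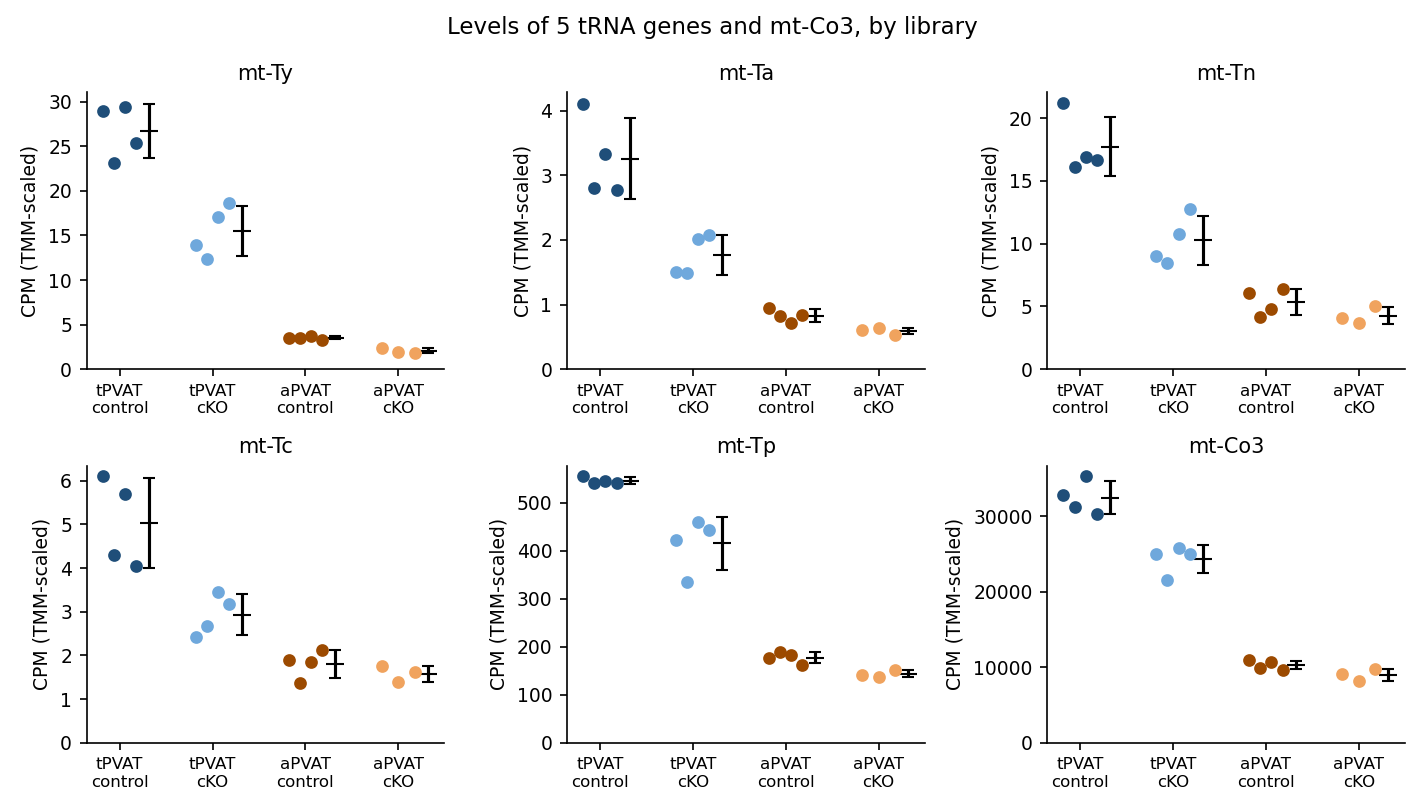
TMM-scaled CPM (y axis) of mt-Ty, mt-Ta, mt-Tn, mt-Tc, mt-Tp and mt-Co3 in each library by group (x axis), with mean ± SD. mt-Ty is at 23.1 to 29.4 in tPVAT controls, 12.4 to 18.6 in tPVAT cKO, 3.32 to 3.71 in aPVAT controls and 1.84 to 2.38 in aPVAT cKO, and no pair of groups overlaps.

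Markers of heart muscle, a tissue rich in mitochondria, were also lower in 3 of the 4 tPVAT cKO libraries than in any tPVAT control. The summed CPM of Myh6, Myl7, Nppa, Tnnt2 and Actc1 was 165 to 227 in the controls and 79.2, 59.1, 170 and 141 in cKO 1 to 4, with none of the 5 at 0. Of the 5, 2 fell, against 6.61% of all genes tested: Nppa by 2.38 and Actc1 by 0.70. Nppa was near 0 throughout, at 0.322 to 0.949 CPM in controls and 0.0179 to 0.211 in cKO. Myh6 (84.4 to 121 against 27.9 to 88.4) and Tnnt2 (24.7 to 35.9 against 10.1 to 30.9) overlapped. Myl7 (14.9 to 20.9 against 5.77 to 14.1) did not overlap but missed the threshold, as did Myh6 and Tnnt2. Without cKO 1 and 2, the lowest, which were picked after the data were seen, 1 of 13 protein genes (mt-Co3, adjusted p = 0.0487) and 3 RNA genes (mt-Ty, mt-Ta and mt-Tp) fell, with 2 libraries left in that group. All 13 protein genes kept negative values there, with a median of -0.19, and those that lost their call stood at -0.29 (mt-Co2), -0.23 (mt-Cytb), -0.24 (mt-Nd3), -0.58 (mt-Tn), -0.60 (mt-Tc), -0.42 (mt-Tg) and -0.38 (mt-Th).

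Some markers of other cells passed the threshold in tPVAT as well, where 6.61% of all genes tested fell and 5.44% rose. A single call among 5 or 6 markers is not shown to exceed those shares. Of 5 endothelial markers 3 fell (Tie1 by 0.36, Kdr by 0.32, Esam by 0.25), and their sum was 735.6 to 828.6 CPM in controls and 651 to 669 in cKO, without overlap. Of 5 adipocyte markers 2 rose (Adipoq by 0.41, Plin1 by 0.34), and of 5 smooth muscle markers 1 fell (Des by 0.45). The brown fat markers Ucp1, Cidea, Cox8b, Cox7a1, Elovl3 and Dio2 summed to 8500 to 9236 CPM in tPVAT controls and 5398 to 6600 in cKO. Most of that sum was Ucp1, at 5930 to 6580 CPM in controls and 3500 to 4420 in cKO. Of the 6 markers only Cox8b passed, at 513 to 557 against 254 to 354. Ucp1, Cidea (1460 to 1580 against 1270 to 1390) and Cox7a1 (207 to 244 against 114 to 198) missed the threshold. They too were lower in every cKO library than in every control. Elovl3 stood at 161 to 190 CPM in controls and 161 to 217 in cKO, and Dio2 at 124 to 209 and 98.3 to 179, both with overlap. No marker of macrophages, fibroblasts, lymphocytes, skeletal muscle or red blood cells passed, and red blood cell markers summed to 376 to 660 CPM and 200 to 468. The part of other cells in the mitochondrial values was not tested beyond this.

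The aPVAT comparison gave fewer calls. None of 13 protein genes fell or rose by edgeR, none had an unadjusted p under 0.05, and DESeq2 also called 0; among all genes tested 0.789% fell and 1.53% changed in either direction. Log2 values ran from -0.20 (mt-Co3) to 0.11 (mt-Nd6), with a median of -0.07. mt-Co3, at 10928, 9930, 10653 and 9663 CPM in the controls and 9038, 8170 and 9728 in the cKO libraries, had the smallest p of the 13 (adjusted p = 0.407) and overlapped by 1 library. mt-Cytb, at 10682 to 14424 CPM against 12058 to 12556, and mt-Co2, at 6387 to 8241 against 6737 to 7094, had cKO values inside the range of the controls.

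Of the 24 RNA genes only mt-Ty fell in aPVAT. It stood at 3.54, 3.52, 3.71 and 3.32 CPM in the controls and 2.38, 1.95 and 1.84 in the cKO libraries, a fall by 0.76 (SE 0.146, edgeR adjusted p = 0.0116). Leaving out cKO 3 of this depot (adjusted p = 0.0642) or cKO 4 (0.0593) ended the call. When tPVAT cKO 2, which shares the fitted spread, was left out, mt-Tp passed as well (adjusted p = 0.0421). mt-Tp stood at 177, 189, 182 and 162 CPM against 142, 138 and 152, and mt-Ta at 0.946, 0.822, 0.708 and 0.833 against 0.601, 0.631 and 0.535. With mt-Ty these are the 3 of 22 tRNA genes whose groups did not overlap, all lower in cKO, against 5.8% of all genes tested. The other members of the run overlapped: mt-Tn at 4.2 to 6.39 CPM against 3.69 to 5.05, and mt-Tc at 1.36 to 2.13 against 1.39 to 1.75. mt-Tv, the valine tRNA, had 1, 0, 3 and 6 counts in the controls and 0 in each of the 3 cKO libraries, too few for a fold change.

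The rRNA values in aPVAT depended on single libraries. mt-Rnr1, the small subunit rRNA, stood at 421, 982, 631 and 569 CPM in the controls and 488, 366 and 2640 in cKO 1, 3 and 4, and mt-Rnr2, the large subunit rRNA, at 428, 1319, 728 and 680 against 697, 477 and 3316. The highest control and the highest cKO library were those that also stood apart in nuclear structural RNA. The log2 values were 0.84 (SE 0.502, edgeR adjusted p = 0.522) and 0.92 (SE 0.516, adjusted p = 0.492) with all libraries, -0.61 and -0.43 without aPVAT cKO 4, and -0.34 and -0.06 without both libraries.

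**Figure D4:**
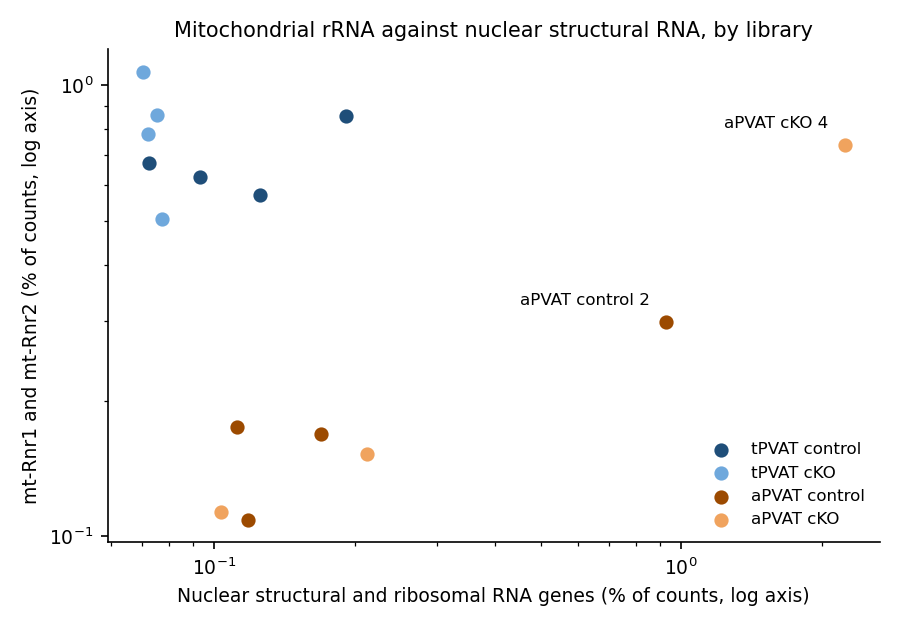
Percent of counts held by the mitochondrial rRNA genes (y axis, log scale) against the percent held by nuclear structural RNA (x axis, log scale), 1 point per library, by group. aPVAT cKO 4 lies at 0.737% and 2.24%, to the right of all other libraries.

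The difference between the genotype effects of the 2 depots did not pass for any member. By edgeR's interaction term 0 of 37 genes passed and DESeq2 called 0, while 0.784% of all genes tested passed. An unadjusted p under 0.05 was found for 6 (1 protein and 5 RNA genes), and for 1738 of the 19645 genes tested. Among the RNA genes was mt-Tv, which had too few counts for a fold change. The calls listed for tPVAT and not for aPVAT are therefore not shown to differ between depots.

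Between the depots 36 of the 37 genes differed in controls, as did 11122 of the 19645 genes tested. mt-Tf and mt-Tv were among the 36 and entered the test through tPVAT libraries only (below). In controls all 13 protein genes were lower in aPVAT than in tPVAT, with log2 values of aPVAT over tPVAT from -1.56 (mt-Co1, SE 0.0886, edgeR adjusted p = 7.74e-10) to -2.57 (mt-Nd2, SE 0.117, adjusted p = 1.35e-10), against 27.3% of all genes tested that were lower. None of the 13 overlapped between depots, against 24.1% of all genes tested that were lower without overlap. By complex the median was -1.66 for complex IV, -2.16 for complex III, -2.20 for complex V and -2.25 for complex I, and these differences between complexes were not tested. In cKO libraries all 13 were again lower, with values from -1.43 (mt-Co1) to -2.57 (mt-Nd2), against 25.4% of all genes tested, and none overlapped, against 27.5%.

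mt-Nd2 and mt-Co1 mark the ends of that range. mt-Nd2, a complex I subunit, stood at 33678, 29392, 34353 and 33842 CPM in tPVAT controls and 5104, 6289, 5401 and 5342 in aPVAT controls. mt-Co1 stood at 33284, 34226, 33233 and 30297 CPM in aPVAT controls and 27541 to 30840 in aPVAT cKO, next to the tPVAT values given above. Without TMM, when total counts set the scale, the median of all genes tested moved by 0.75 in controls and by 0.65 in cKO, and all 13 remained lower (median -1.42 and -1.25). In controls the 13 stood at -2.20 relative to the median gene, a difference that scaling cannot move. That scaling moved the share of calls that were lower among all genes from 48.3% to 8.85% in controls, from 48.3% to 9.40% in cKO, from 54.8% to 33.1% for genotype in tPVAT, from 51.5% to 63.4% for genotype in aPVAT and from 79.9% to 90.5% for the interaction.

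Of the 24 RNA genes, 23 were lower in aPVAT controls, against 27.3% of all genes tested. The exception was mt-Td, the aspartate tRNA, with 1 to 6 counts per library in both groups (log2 -0.58, edgeR adjusted p = 0.422). The 22 tRNA genes had a median of -2.67, with -2.74 on the plus strand and -1.85 on the minus strand. Plus-strand examples with ample counts were mt-Tl1 at -2.67 (SE 0.165), with 44.5 to 62.1 CPM in tPVAT and 6.84 to 10.2 in aPVAT, and mt-Tg at -2.84 (SE 0.173). On the minus strand mt-Ts1 had -1.44 (SE 0.139), mt-Tc -1.47, mt-Tp -1.62, mt-Tn -1.72, mt-Ta -1.98, mt-Tq -2.72, mt-Te -2.73 and mt-Ty -2.92. mt-Rnr1 and mt-Rnr2 had -2.65 and -2.58. In cKO libraries all 24 were lower, against 25.4% of all genes tested. The rRNA genes overlapped there between depots, because aPVAT cKO 4 reached into the tPVAT range. mt-Tf, mt-Tv and mt-Td had at most 6 counts in any aPVAT library. They reached the filter's minimum count of 10 in tPVAT libraries only. Their lower values in aPVAT are therefore no evidence of a depot difference, though they enter these counts and medians.

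The depots also differed in markers of other cells. Macrophage markers summed to 276 to 324 CPM in tPVAT controls and 486 to 635 in aPVAT controls, fibroblast markers to 1588 to 2102 and 3197 to 4230, and endothelial markers to 735.6 to 828.6 and 906 to 1149. In the same order, skeletal muscle markers summed to 9.40 to 55.1 and 2.07 to 5.31, and red blood cell markers to 376 to 660 and 134 to 231. Sums overlapped for lymphocyte markers (6.24 to 10.1 and 8.88 to 43.9) and smooth muscle markers (1727 to 2273 and 1277 to 2108). Adipocyte sums are given above. Heart muscle markers summed to 11.0 to 15.8 CPM in aPVAT controls, where Myh6 stood at 0.162 to 0.262 CPM over the aPVAT libraries, and Myl7 and Nppa were at 0 in aPVAT cKO 4. The brown fat markers summed to 670 to 1143 CPM in aPVAT controls and 116 to 178 in aPVAT cKO. Kidney tubule and adrenal cortex markers summed to at most 17.1 and 6.84 CPM in any library. How far the makeup of cells sets the depot values of the mitochondrial genes was not tested.

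Per kilobase of gene, which allows genes to be compared, the 13 protein genes of tPVAT controls spanned 64070 ± 5930 CPM per kb (SD, n = 4) for mt-Atp6 to 10250 ± 965 for mt-Nd3. Neighbours in this order are called apart where their ranges of mean ± SD do not meet, and counts placed on nuclear copies (below) are not in these levels. mt-Atp6, mt-Co1 (62660 ± 2580) and mt-Atp8 (58210 ± 4140) led and were not apart. mt-Cytb (48990 ± 3690), mt-Co2 (44750 ± 2960), mt-Nd1 (43330 ± 3130) and mt-Co3 (41350 ± 2800) followed, not apart from the next in turn. mt-Nd2 (31610 ± 2220) and mt-Nd4 (31120 ± 1830) were not apart, and mt-Nd4l (19180 ± 1190), mt-Nd6 (16960 ± 1520) and mt-Nd5 (15980 ± 1520), again not apart from the next, came before mt-Nd3. With the copies' counts added, the order changed: mt-Co2 came to 68210 ± 4770, above mt-Atp8 and mt-Cytb, mt-Co3 to 56880 ± 3680, above mt-Cytb, mt-Nd4 (36830 ± 2280) came above mt-Nd2 (31730 ± 2230), and mt-Nd3 came to 16910 ± 1520, level with mt-Nd6 and above mt-Nd5 (16000 ± 1520). mt-Atp6 and mt-Co1 led in both orders. Genes of the plus strand, which share a precursor, differed several-fold in level.

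The order changed in aPVAT. There mt-Co1 led alone at 21200 ± 1100 CPM per kb (SD, n = 4), followed by mt-Atp6 (14760 ± 1910), mt-Co3 (13130 ± 759), mt-Atp8 (11980 ± 1370), mt-Cytb (10930 ± 1430), mt-Co2 (10600 ± 1170) and mt-Nd1 (9123 ± 1080), these 6 not apart from the next in turn. mt-Nd4 (6691 ± 989) and mt-Nd2 (5331 ± 500), not apart, came before mt-Nd6 (3985 ± 676), mt-Nd4l (3780 ± 531), mt-Nd5 (3140 ± 532) and mt-Nd3 (2642 ± 319), where again no neighbours were apart. There too mt-Co1 led, and mt-Atp6 came second, with the copies added. Below them the order changed: mt-Co2 came to 15870 ± 1690, above mt-Atp8 and mt-Cytb. mt-Nd3 came to 4268 ± 518, above mt-Nd5 (3144 ± 533) and not apart from mt-Nd6.

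As a share of the counts of the 13, which does not depend on how libraries are scaled, mt-Co1 took 21.5% to 23.6% in the 8 tPVAT libraries and 27.7% to 33.1% in the 7 aPVAT libraries. mt-Co3 took 6.49% to 7.60% and 8.22% to 10.9%. Both subunits belong to complex IV, and these were the 2 genes with a higher share in every aPVAT library than in any tPVAT library. Lower without overlap were mt-Nd1 (9.33% to 10.6% against 7.58% to 8.38%), mt-Nd2 (7.15% to 8.42% against 4.36% to 5.21%), mt-Nd4 (9.49% to 10.1% against 7.60% to 9.37%), mt-Nd4l (1.25% to 1.34% against 0.925% to 1.15%) and mt-Atp8 (2.56% to 2.77% against 2.10% to 2.32%). Shares of a fixed sum move against each other, so a gain for mt-Co1 lowers others. Counts placed on nuclear copies (below) are not in these shares.

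Between genotypes few of these shares were apart. In tPVAT mt-Nd1 took 9.51% ± 0.212 (SD, n = 4) in controls and 10.2% ± 0.326 (n = 4) in cKO, mt-Co2 7.02% ± 0.146 and 6.52% ± 0.133, and mt-Cytb 12.9% ± 0.254 and 12.1% ± 0.361, each without overlap, while the other 10 overlapped. In aPVAT mt-Nd6, the minus-strand protein gene, took 1.90% ± 0.192 (n = 4) in controls and 2.18% ± 0.08 (n = 3) in cKO, and the other 12 overlapped. With so few libraries, a share out of 13 can be apart by chance, and these differences were not tested. Nor was it tested how far they depend on counts placed on nuclear copies.

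**Figure D5:**
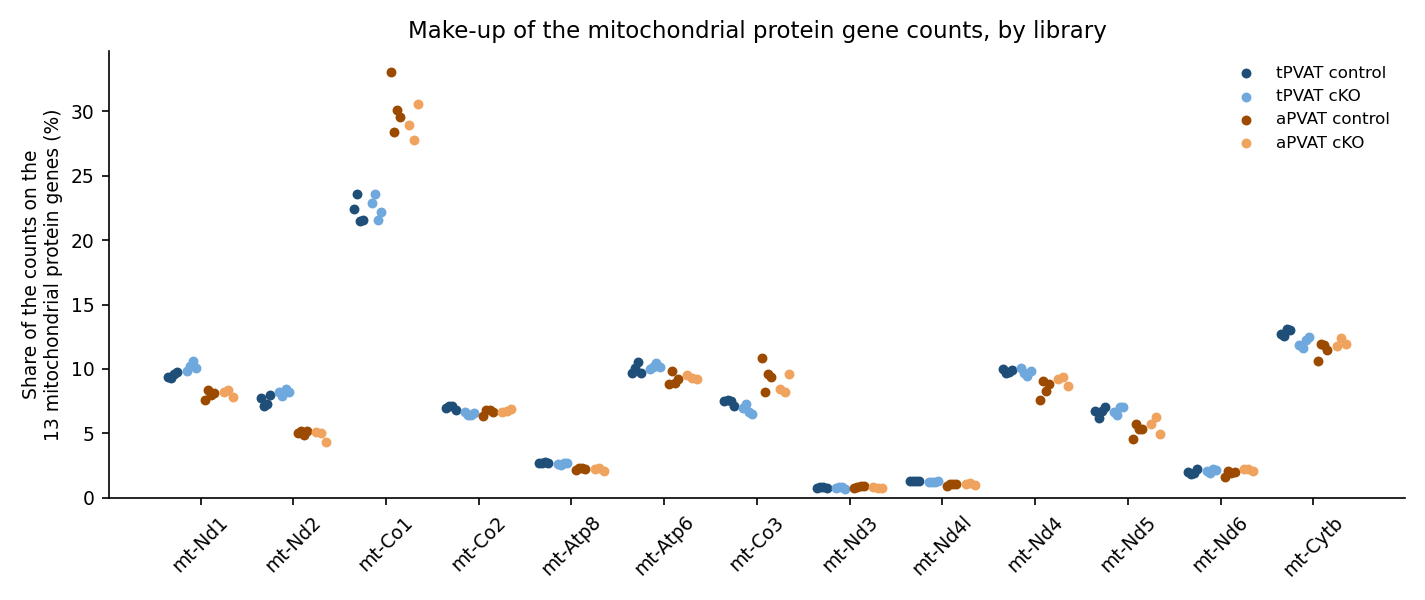
Percent of the counts of the 13 mitochondrial protein genes (y axis) taken by each gene (x axis) in each library, by group. mt-Co1 lies at 21.5% to 23.6% in tPVAT and 27.7% to 33.1% in aPVAT, and mt-Nd2 at 7.15% to 8.42% and 4.36% to 5.21%.

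Counts also stood under the names of nuclear genes that are near copies of mitochondrial ones. A search of the annotated nuclear transcripts found 11 pseudogenes with at least 95% identity to a mitochondrial gene over 100 bases or more. They held 5.34% ± 0.181 of all counts (SD, n = 4) in tPVAT controls, 4.37% ± 0.285 in tPVAT cKO, 2.27% ± 0.106 in aPVAT controls and 2.08% ± 0.115 (n = 3) in aPVAT cKO. Of the copies, 7 lie in a block on the minus strand of chromosome 1 (24611535 to 24616197, mm10) that holds 93.3% of their counts, 3 on chromosome 2 and 1 on chromosome 13. Identical letters give a read no way to be placed, so values of a gene and its copy are uncertain as single values.

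Gm10925 was identical to mt-Atp6 over 678 bases, with 33.2% to 43.5% of its counts, Gm28661 to mt-Co2 over 681 bases (39.2% to 51.4%), Gm28437 to mt-Co3 over 783 bases (34.4% to 41.5%), Gm28439 to mt-Nd4 over 876 bases (15.5% to 18.9%) and Gm10222 to mt-Nd4l over 294 bases (29.0% to 33.6%). Gm28438, whose start is printed above, had 58.0% to 71.4% of the counts of mt-Nd3. Gm29216, with 1 difference from mt-Co1 in 483 bases, had 8.58% to 10.7% of its counts, Gm13340 1.63% to 1.89% of mt-Co1, and Gm13341 7.84% to 9.51% of mt-Co2. No such copy was found for mt-Nd1, mt-Nd6, mt-Atp8 or mt-Cytb by this search. It compared annotated transcripts only and asked for at least 100 aligned bases. Copies outside the annotation, and copies of the tRNA genes, which are all shorter than that, could not be found. Absence of a nuclear copy is therefore not shown for any gene.

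In tPVAT the copies and their counterparts were not always on the same side of the threshold. Gm28437 fell by 0.47 (edgeR adjusted p = 0.00297) beside 0.41 for mt-Co3. Gm10925 fell by 0.38 (adjusted p = 0.0141) where mt-Atp6 had -0.26 (adjusted p = 0.149), and Gm28661 had -0.31 (adjusted p = 0.0777) where mt-Co2 fell by 0.40. With the copies' counts added to their counterparts, 3 of 13 protein genes fell in tPVAT, since mt-Nd3 no longer passed (adjusted p = 0.0642).

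Most nuclear genes for the same complexes fell in tPVAT. Of 78 nuclear respiratory chain genes 67 fell and 1 rose (median -0.37), against 12.0% of all genes tested that changed and 5.44% that rose. By complex 32 of 36 fell in complex I (Ndufv3 by 0.48, Ndufs3 by 0.55), all 4 in complex II (Sdhd by 0.60), all 9 in complex III (Cyc1, cytochrome c1, by 0.62), 11 of 14 in complex IV (Cox8b by 0.78) and 11 of 15 in complex V, where Atp5g3 rose by 0.37. In aPVAT 8 of 78 fell (median -0.27), against 0.789% of all genes tested that fell. Log2 values were -3.35 for Cox7a1, -0.998 for Cox8b, -0.54 for Uqcrc1 and -0.47 for Sdhb. They were -0.41 for Cox7b, Cox5a and Sdhd and -0.36 for Ndufb5. Atp5g3 rose by 0.32, against 0.743% of all genes tested that rose. With total counts in place of TMM, 58 of 78 fell and 1 rose in tPVAT, and 28 fell and 0 rose in aPVAT. Under that scaling 743 of all 19645 genes tested fell in tPVAT and 199 in aPVAT. By the interaction term 1 of 78 passed (median 0.08), against 0.784% of all genes tested. For the other 77 a difference between depots is thus not shown. The counts of the 13 mitochondrial genes were 13.9 ± 0.635 times those of the 78 nuclear genes in tPVAT controls, 14.6 ± 0.799 times in tPVAT cKO, 9.87 ± 1.75 times in aPVAT controls and 11.2 ± 0.519 times in aPVAT cKO. The genotypes overlapped in this ratio in both depots, and every aPVAT library lay below every tPVAT library.

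Genes that copy the mitochondrial DNA into RNA did not pass with the knockout: 0 of 11 in tPVAT (median -0.07) and 0 of 11 in aPVAT. Tfam, which packs and activates the mitochondrial DNA, had -0.07 (adjusted p = 0.50) and -0.02 (0.94), and Polrmt, its RNA polymerase, -0.08 (0.629) and -0.15 (0.587). For the lists that follow, 6.61% of all genes tested fell in tPVAT and 0.789% in aPVAT. In tPVAT 4 of 30 genes for RNA processing fell (Fastk by 0.39, Tbrg4 by 0.31, Mto1 by 0.28, Hsd17b10 by 0.26), 2 of 14 for DNA upkeep (Endog by 0.42, Mgme1 by 0.21) and 5 of 22 for charging tRNAs (Pars2 by 0.45, Aars2 by 0.40, Fars2 by 0.38, Sars2 by 0.30, Hars2 by 0.23). Of 76 mitochondrial ribosomal protein genes 18 fell and 1, Mrps6, rose by 0.39, and of 13 translation factors 3 fell (Tsfm by 0.37, Oxa1l by 0.34, Tufm by 0.28). In aPVAT 1 gene of these lists passed, Mrps36, which fell by 0.64, a count near that background.

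Among 12 regulators of mitochondrial biogenesis, Ppargc1b fell by 0.71 in tPVAT (edgeR adjusted p = 0.00151) and by 0.999 in aPVAT (adjusted p = 0.00148), and Ppara by 0.41 and 0.83. In tPVAT Prdm16 itself fell by 1.08, and Esrrb rose by 2.93. In aPVAT Prdm16 fell by 0.57 and Esrrg by 0.86. Ppargc1a, the best known of them, had 0.19 (adjusted p = 0.587) and -0.06 (0.938), and Nrf1 -0.11 (0.429) and -0.04 (0.904).

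Between depots in controls, 76 of 78 nuclear respiratory genes were lower in aPVAT (median -1.46, against -2.16 for the 13 mitochondrial protein genes), and Atp5g1 and Atp5g3 were higher by 0.69 and 0.30, against 29.3% of all genes tested that were higher in controls and 27.2% in cKO. Also lower were 9 of 11 genes for transcription of mitochondrial DNA (Tfam -0.82, Polrmt -0.89), 26 of 30 for RNA processing, 19 of 22 for charging tRNAs, 74 of 76 ribosomal protein genes and all 13 translation factors, against 27.3% of all genes tested. Genes for DNA upkeep stood near that background, with 5 of 14 lower (Endog -1.31, Twnk -0.84, Mgme1 -0.47, Top1mt -0.46, Ssbp1 -0.35) and 2 higher (Tk2 0.32, Top3a 0.22). Of the regulators 8 of 12 were lower, among them Ppargc1b at -2.38 and Ppargc1a at -2.28, while Pprc1 was higher by 0.29 and Nrf1 had 0.12 (adjusted p = 0.25). Except for the respiratory genes and the count of lower regulators, these depot counts depended on the scaling. With total counts in place of TMM, 71 of 78 respiratory genes were still lower (median -0.71), but the medians were -0.07 for transcription, 0.07 for RNA processing, -0.01 for charging tRNAs, -0.05 for ribosomal proteins, -0.29 for translation factors and 0.54 for DNA upkeep, where 12 of 14 were then higher and 1 lower. Under that scaling all genes tested had a median of 0.78, and of the 16036 called 8.85% were lower. Each of these list medians thus still lay below that of all genes. The regulators had 8 of 12 lower under both scalings, but 1 was higher with TMM and 4 with total counts. Their median was -1.41 with TMM and -0.67 with total counts.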

How the data were processed

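RNA was extracted from snap-frozen PVAT and libraries were made with the Illumina stranded mRNA kit, per the labels' protocols. The deposited table holds raw counts per Ensembl gene, which the authors made from the reads before deposit; the submitters' processing notes name mm10, Salmon, Subread and DESeq2 1.42.1 without saying which made the counts, and for the counter, the annotation and whether strand was used, nothing is given in the sources used here. Without the strand setting, reads of a gene and of the opposite strand cannot be told apart, which bears on the 9 minus-strand genes and on mt-Nd5 and mt-Nd6, which overlap by 14 bases. Symbols came from GENCODE M21 (GRCm38), which matched 42462 of 43352 identifiers (97.9%).

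The low-count filter (filterByExpr, minimum count 10) kept 19645 genes, which hold 99.98% of counts. They were scaled by TMM and tested with edgeR 4.0.16 (R 4.3.3), quasi-likelihood, with 1 mean per group over all 15 libraries and Benjamini-Hochberg adjustment over all genes tested, threshold 0.05. The script was tested on simulated data. Nuclear copies were found with BLAST 2.17.0 (at least 95% identity over 100 bases). Alternatives were DESeq2 1.42.0, its size factors, total counts, nuclear genes alone for scaling, no filter, only the groups compared, replicate number as a block, each library left out, the 2 libraries with the most structural RNA left out, copies added and, chosen after seeing the data, tPVAT cKO 1 and 2 left out.

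The members and gene lists were chosen with earlier results of these data known. Named are all 13 protein and both rRNA genes, the tRNA genes with the 4 highest levels or past the threshold (in depot comparisons by range and examples), of each nuclear list up to 4 called genes with the smallest p, counts of 5 or fewer in full, Ppargc1a, Ppargc1b, Tfam, Polrmt, Nrf1 and Prdm16, and copies with over 1% of their counterpart's counts. Depth limits mt-Tf, mt-Tv and mt-Td, which had few counts in every library. An aPVAT cKO library with the number 2 is not analysed here.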

Additional observations from a re-analysis of the deposited data

Results flagged for a closer look

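In 5 of 90 sets of 4 libraries looked at, a member had 1 library far from the other 3, by a gap that took more than 0.829 of the range; about 1 in 20 sets does so by chance. mt-Atp6 was high in tPVAT control 3, at 49655 CPM. mt-Nd2 was low in tPVAT control 2, at 29392 CPM. mt-Tn was high in tPVAT control 1, at 21.2 CPM, and mt-Ts1 was low in tPVAT cKO 2, at 50.7 CPM. mt-Te was low in aPVAT control 1, at 9.16 CPM. Of these, the mt-Tn library is one of the controls behind a call in tPVAT, and mt-Tn kept its call without it.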

How the results depend on the processing

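Of 2550 checks of single genes, 31 changed sign, none of them for the 62 results that passed at first and none of them passing. In tPVAT 4 protein genes and 7 RNA genes fell; the counts were 8 and 13 by DESeq2, 1 and 3 without the 2 cKO libraries with the least heart muscle markers, and 1 to 7 for protein genes with 1 library left out. With the replicate number as a block they were 3 and 8, and no other comparison changed its counts; same-numbered libraries deviated together with correlations of -0.222 to 0.169, and as not every pair was above 0.1 the numbers were not taken to pair the samples, which does not exclude a pairing; between the tPVAT groups the 4 correlations were 0.056 to 0.147, and 3 of 4 libraries correlated best with their own number. In aPVAT the single RNA call became 2 with total counts, 0 with only the 2 groups, 0 without the 2 libraries rich in structural RNA and 0 to 2 with 1 library left out. The cause was not tested. With copies added, mitochondrial shares were 39.9%, 34.3%, 16.6% and 15.6%, and per kilobase the ratios to nuclear respiratory genes were 24.8, 26.4, 17.4 and 20, in the order tPVAT control, tPVAT cKO, aPVAT control, aPVAT cKO; both follow from the construction.

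The sign changes in aPVAT without the 2 libraries rich in structural RNA were mt-Rnr1 -0.34, mt-Rnr2 -0.06, mt-Nd1 0.04, mt-Atp8 0.01, mt-Atp6 0.04, mt-Nd4l 0.12, mt-Te 0.09 and mt-Cytb 0.07. With total counts they were mt-Nd4 -0.01 and mt-Nd5 0.00, and with the replicate block mt-Nd5 -0.01. With 1 library left out, aPVAT values ran from -0.61 to 1.26 for mt-Rnr1, -0.43 to 1.34 for mt-Rnr2, -0.13 to 0.01 for mt-Nd1, -0.12 to 0.00 for mt-Co2, -0.12 to 0.02 for mt-Atp6, -0.11 to 0.05 for mt-Nd4l, -0.07 to 0.11 for mt-Nd4, -0.08 to 0.12 for mt-Nd5, -0.31 to 0.05 for mt-Te and -0.09 to 0.05 for mt-Cytb, and in tPVAT from -0.13 to 0.23 for mt-Rnr1. The fit to only 2 groups was not run for the interaction, nor the genotype-and-number block for the genotype comparisons.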

Other observations

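Among the 22 genes for charging mitochondrial tRNAs, 1 went against the rest between depots in cKO libraries: Lars2, for leucine, was higher in aPVAT by 2.97 on the log2 scale (edgeR adjusted p = 0.00847), while 18 of the 22 were lower (median -0.62). That call rests on 1 library: Lars2 stood at 350, 155 and 3940 CPM in aPVAT cKO 1, 3 and 4 and at 166 to 232 in tPVAT cKO, and without aPVAT cKO 4 its log2 value was 0.42 (edgeR adjusted p = 0.603). It was also highest of the aPVAT controls in control 2, at 1180 CPM against 178 to 262, and these are the 2 libraries that stood apart in structural RNA. The cause was not tested.

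Of the counts of the 22 mitochondrial tRNA genes, the 8 on the minus strand took 88.5% ± 1.09 (SD, n = 4) in tPVAT controls, 87.3% ± 1.74 in tPVAT cKO, 94.0% ± 0.419 in aPVAT controls and 93.9% ± 1.05 (n = 3) in aPVAT cKO, most of it from mt-Tp alone, as given above.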
